A study of Mus musculus with 13 samples.

Results

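The genes described are Eps8l1, Iqcn, Fam71a, Zfp3, Gbe1 and Eloc, 6 of the 19737 genes measured in mouse microglia, the resident macrophages of the brain. They were chosen for having some of the smallest unadjusted p-values when 5xFAD microglia given a circular RNA were compared with 5xFAD microglia given EGFP, or with 5xFAD microglia labelled as a knockout of the kinase PKR. Those p-values therefore describe how the genes were chosen and support nothing further. The ribosomal RNA-depleted libraries came from WT mice (n = 3) and 5xFAD mice (n = 2), both given the viral vector AAV PHP.eB-EGFP, from 5xFAD mice given AAV PHP.eB-circPOLR2A (n = 4) and from mice of genotype 5xFAD; PKR KO (n = 4), for which no vector is named. The treatment labels of the circular RNA libraries read circPOLR2A(9,10), (9,11), (9,12) and (9,13), while the series' design gives 1 construct for all of them. Whether they share it is not settled, and they are grouped here by their titles as circRNA. No age or sex is given, the promoter of the vectors is not given, and library names appear only for the PKR KO libraries, so their handling and the knockout cannot be told apart. Nothing states that replicates came from separate animals, so p-values measure the spread between these libraries only.

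PKR, encoded by Eif2ak2, is a kinase that double-stranded RNA switches on and that slows translation by phosphorylating the initiation factor eIF2alpha. Some circular RNAs form short imperfect duplexes that bind PKR and hold it inactive, which is the setting in which a circular RNA and a loss of PKR are compared. The 5xFAD mouse carries human transgenes with familial Alzheimer's disease mutations under the neuronal Thy1 promoter and builds up amyloid plaques, around which microglia gather. The genes have no common role. Eps8l1 encodes a relative of EPS8, an adaptor between receptor signalling and actin. Iqcn encodes a protein with IQ motifs, short stretches that bind calmodulin, and Fam71a belongs to a family known mainly from testis whose members bind the small GTPase RAB2. Zfp3 encodes a zinc finger protein of the C2H2 type, and Gbe1 encodes the enzyme that puts the branches into glycogen. Eloc encodes elongin C, which with elongin B (Elob) joins substrate receptors such as VHL and the SOCS proteins to cullin ubiquitin ligases.

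Positions are from GENCODE M21 on GRCm38. Eps8l1 lies at chr7:4460674-4480487 (plus strand), Iqcn at chr8:70703457-70717650 (plus), Fam71a at chr1:191162584-191164817 (minus), Zfp3 at chr11:70764209-70772928 (plus), Gbe1 at chr16:70313949-70569716 (plus) and Eloc at chr1:16641725-16657042 (minus). Each is annotated as protein coding, and FPKM values count fragments over all exons of a gene together. In RefSeq's promoter table (build GRCm38.p6), 5 of the 6 genes had an entry, in 7 windows. Of these, 3 are shown, for the gene with the largest difference from EGFP (Eps8l1, the first of its 3 windows), for a gene highest in the libraries labelled PKR KO (Fam71a) and for the gene with the smallest replicate spread (Gbe1). Each is the 250 bases before a RefSeq start, 5′ to 3′ on the gene's strand, with motif matches in capitals, at chr7:4460447-4460696 (plus), chr1:191164818-191165067 (minus) and chr16:70313699-70313948 (plus). The RefSeq start of Eps8l1 lies after that of GENCODE, so the end of its window is inside the gene as placed above.
Eps8l1: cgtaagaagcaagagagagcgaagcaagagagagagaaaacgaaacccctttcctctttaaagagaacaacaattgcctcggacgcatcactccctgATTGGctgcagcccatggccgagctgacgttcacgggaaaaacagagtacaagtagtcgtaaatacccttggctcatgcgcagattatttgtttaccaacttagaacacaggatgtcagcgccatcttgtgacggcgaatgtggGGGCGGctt
Fam71a: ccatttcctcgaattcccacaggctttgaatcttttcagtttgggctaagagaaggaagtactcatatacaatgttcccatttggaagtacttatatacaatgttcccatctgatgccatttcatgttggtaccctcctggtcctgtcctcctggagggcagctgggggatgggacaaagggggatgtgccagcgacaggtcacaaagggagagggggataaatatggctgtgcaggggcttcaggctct
Gbe1: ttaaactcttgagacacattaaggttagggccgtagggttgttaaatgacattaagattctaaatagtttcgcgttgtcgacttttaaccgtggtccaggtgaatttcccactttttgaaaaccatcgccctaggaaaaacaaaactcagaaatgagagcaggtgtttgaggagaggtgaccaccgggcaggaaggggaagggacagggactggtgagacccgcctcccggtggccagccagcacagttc
The letters searched, on both strands, were TGANTCA for AP-1, TGACGTCA for the cyclic AMP element CRE, CACGTG for the E-box, TATAAA for the TATA element, CCAAT for the element of that name, GGGCGG for the GC-rich Sp1 element, CCGGAAG for ETS factors, and the NF-kappaB motif. Of 32851 promoter windows in the table, 6.75% held the AP-1 letters, 1.55% CRE, 6.02% the E-box, 12.4% the TATA element, 33.8% the CCAAT letters, 32.7% the GC-rich element, 6.91% ETS and 7.25% NF-kappaB. The Eps8l1 window shown held a CCAAT box on the reverse strand 153 bases before the RefSeq start and a GC-rich element 9 bases before it, the latter after the GENCODE start. The other 2 Eps8l1 windows overlap and held 1 match each, the same GC-rich element on the reverse strand. The Zfp3 window held 3 matches, an NF-kappaB motif 181 bases, a CCAAT box 34 bases and ETS letters 12 bases before the RefSeq start. Most of that window lies after the GENCODE start, inside the gene as placed above. The Fam71a, Gbe1 and Iqcn windows held 0 matches, which says only that these letters were not in those 250 bases. GC content was 49.6% in the Eps8l1 window shown and 57.2% and 63.2% in its other windows, 49.6% for Fam71a, 48.8% for Gbe1, 47.6% for Iqcn and 68.0% for Zfp3, against a median of 52.4% over all windows.

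Sequencing depth, recovered from the steps of the FPKM values, was 45.21 to 70.01 M (mega) fragments in a library, and 10817 genes that averaged 1 FPKM or more across libraries were tested. All 6 genes passed that filter. Summed microglia markers reached 3850 to 8580 FPKM in a library, with 12 of 12 listed genes above 0 in every library. Summed oligodendrocyte markers lay between 231 and 1610 FPKM, ependymal and choroid plexus markers between 204 and 2680 FPKM, and lymphocyte and neutrophil markers between 1.90 and 17.0 FPKM, with 7 of those 12 genes at 0 in some libraries. Eif2ak2 measured 5.18, 5.23 and 4.14 FPKM in WT, 6.49 and 6.59 in 5xFAD EGFP, 7.37, 7.48, 7.73 and 8.11 with circRNA, and 3.35, 4.61, 3.31 and 4.16 in the libraries labelled PKR KO. The last are below every other 5xFAD library but not at 0 and overlap WT, and the deleted part of the gene is not given. On the second principal component of all tested genes (18.1% of the variance), WT replicate 3 stood at 17.2, apart from the other WT libraries at -18.2 and -22.1.

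The circRNA libraries stood apart from the 5xFAD EGFP libraries in all 6 genes, with Eps8l1, Iqcn and Fam71a lower and Zfp3, Gbe1 and Eloc higher. The groups did not overlap for any of them, as was the case for 19.3% of all 10817 genes, and since this contrast chose several of them nothing is read from that. The sizes differed widely, from 0.317 times the EGFP mean for Eps8l1 to 1.11 times for Eloc. After adjustment over all genes no gene passed in this comparison (0 of 10817 at a limma adjusted p of 0.05, or 0%), and the smallest adjusted p was 0.739. At an unadjusted p of 0.05, 523 genes passed, or 4.83%. That count ran from 250 (libraries rescaled to equal FPKM sums) to 1087 (the mean log2 level of neuron, astrocyte, oligodendrocyte, endothelial and mural markers as a covariate) over the other settings, and with a library left out it was 93 without EGFP replicate 2, 219 without circRNA replicate 3, 833 without circRNA replicate 4 and 465 to 566 otherwise. In bulk libraries, fewer cells of a type and less RNA per cell cannot be told apart.

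**Figure D1:**
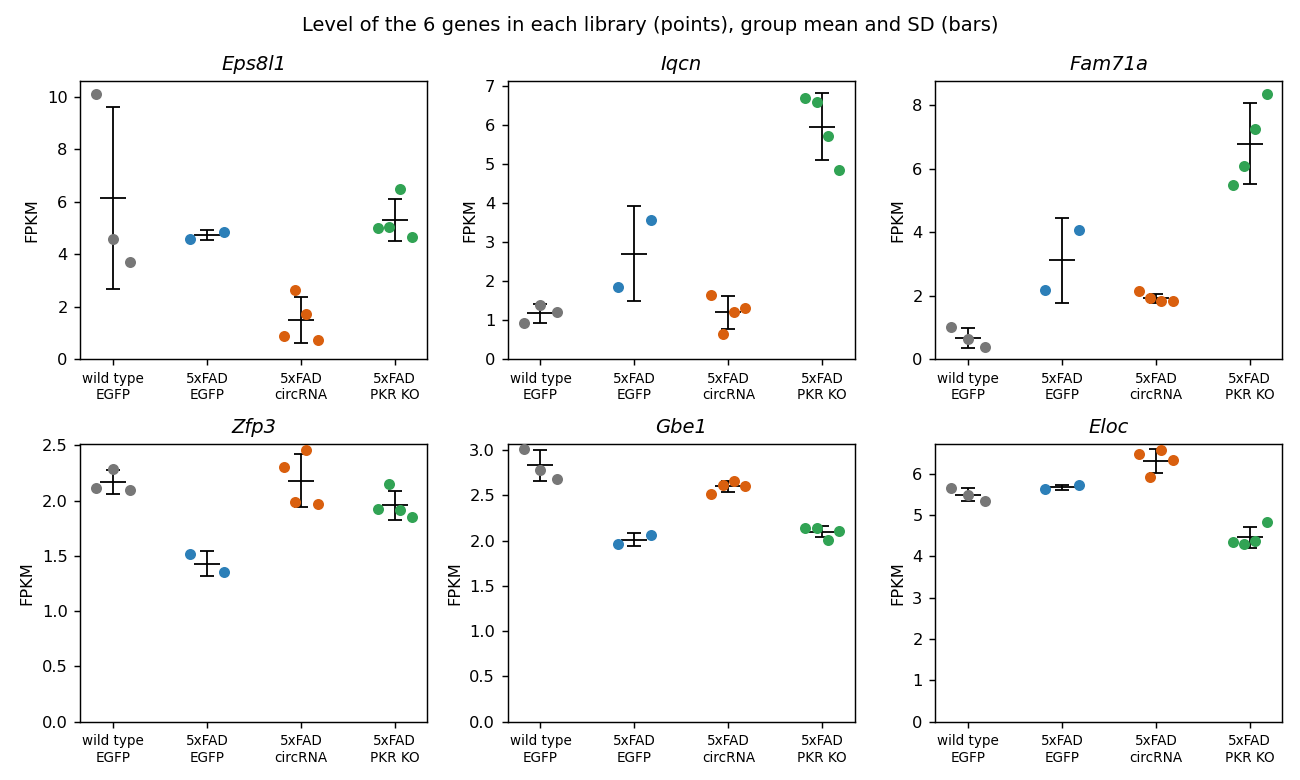
FPKM of the 6 genes (y axis, linear, from 0) in each library (points) by group (x axis), with the group mean (wide bar) and SD (whiskers). Iqcn and Fam71a are highest in the 4 PKR KO libraries, Eps8l1 is lowest in the 4 circRNA libraries, and Zfp3, Gbe1 and Eloc span less than 2-fold from lowest to highest library.

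Eps8l1 showed the widest scatter. It measured 10.1, 4.58 and 3.72 FPKM in the 3 WT libraries and 4.59 and 4.86 FPKM in the 2 5xFAD EGFP libraries. With circRNA it measured 0.893, 2.65, 1.73 and 0.717 FPKM, and in PKR KO 5.01, 5.05, 6.49 and 4.67 FPKM. The 4 circRNA libraries are lower than the other 9, which overlap one another, and WT replicate 1 is more than 2-fold above the next WT library. The means were 6.14 ± 3.48 (SD, n = 3) in WT, 4.73 ± 0.191 (n = 2) in EGFP, 1.5 ± 0.886 (n = 4) with circRNA and 5.31 ± 0.807 (n = 4) in PKR KO. On the scale log2(FPKM + 1), on which differences are given throughout and which understates those of low genes, circRNA was below EGFP by -1.26 (SE 0.33, 95% interval -1.97 to -0.55). Only 2 of the tested genes had a larger difference there in either direction, yet 11 had a smaller p. The spread within the circRNA group was 59.2% of the mean, where counting error alone, from 220 to 846 fragments a library, would give 5.29%.

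Iqcn was highest in PKR KO, at 6.69, 6.59, 5.73 and 4.84 FPKM. It measured 1.84 and 3.57 FPKM in the EGFP libraries, 1.65, 0.640, 1.21 and 1.31 with circRNA, and 0.914, 1.38 and 1.21 in WT. The PKR KO libraries lie above all others, the EGFP libraries come next, and circRNA and WT overlap at means of 1.20 ± 0.421 (SD, n = 4) and 1.17 ± 0.235 (n = 3). The lower EGFP library is only just above the highest circRNA library. The difference circRNA minus EGFP was -0.73 (SE 0.21), with 25 genes showing a larger one, and it rested on the second EGFP library. Without that library it was -0.39, and without the first -1.07.

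Fam71a had the same order of the 5xFAD groups. It measured 5.47, 6.08, 7.26 and 8.36 FPKM in PKR KO, 2.17 and 4.06 in EGFP, 2.13, 1.91, 1.84 and 1.82 with circRNA, and 1.00, 0.624 and 0.390 in WT. None of the 4 groups overlap, and the means fall from 6.79 ± 1.28 (SD, n = 4) in PKR KO through 3.12 ± 1.34 (n = 2) and 1.92 ± 0.142 (n = 4) to 0.673 ± 0.310 (n = 3) in WT. The gap between EGFP and circRNA is the narrow one, since 2.17 and 2.13 FPKM are the nearest values. The difference circRNA minus EGFP was -0.46 (SE 0.19), at place 301 in the ranking by p, and without the second EGFP library it was -0.12. WT libraries held 44 to 106 fragments of Fam71a, a counting error of 12.3% beside a spread of 46.1%.

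Zfp3 had the smallest unadjusted p of all genes in circRNA against EGFP. It measured 2.3, 1.99, 2.46 and 1.97 FPKM with circRNA and 1.51 and 1.35 in EGFP. PKR KO gave 1.93, 2.15, 1.92 and 1.85 FPKM, and WT 2.12, 2.29 and 2.1. The 2 EGFP libraries are the low ones, and the other 3 groups overlap, with means of 2.18 ± 0.239 (SD, n = 4) for circRNA, 2.17 ± 0.107 (n = 3) for WT and 1.96 ± 0.130 (n = 4) for PKR KO. Since this contrast chose Zfp3, these levels are a description. The difference was 0.38 (SE 0.08), smaller than that of 387 other genes. Its EGFP libraries held 153 and 167 fragments, a counting error of 7.91% beside a spread of 8.01%.

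Gbe1 varied little. It measured 3.02, 2.78 and 2.68 FPKM in WT, 1.96 and 2.07 in EGFP, 2.51, 2.62, 2.66 and 2.60 with circRNA, and 2.14, 2.14, 2.00 and 2.11 in PKR KO. WT and circRNA are above EGFP and PKR KO with no overlap, whereas EGFP (mean 2.01) and PKR KO (mean 2.1) overlap. The difference circRNA minus EGFP was 0.26 (SE 0.06), and 1084 genes had a larger one. Its replicates lay close together, with a spread below the counting error in 3 of the 4 groups (in circRNA 2.36% against 3.85%). The 13 libraries differed by 1.54-fold from lowest to highest.

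Eloc measured 6.47, 5.91, 6.57 and 6.32 FPKM with circRNA and 4.35, 4.3, 4.38 and 4.84 in PKR KO, with 5.64 and 5.72 in EGFP and 5.65, 5.50 and 5.33 in WT. The circRNA libraries are the highest and the PKR KO libraries the lowest, and EGFP and WT overlap between them. The means were 6.32 ± 0.290 (SD, n = 4), 4.47 ± 0.254 (n = 4), 5.68 ± 0.0599 (n = 2) and 5.49 ± 0.158 (n = 3). Against EGFP the difference was 0.13 (SE 0.07), at place 744 by p, and it was 0.055 under quantile normalization, 0.043 under median-ratio scaling, 0.03 with equal FPKM sums and 0.051 with voom. Its spread was below the counting error in 2 of 4 groups.

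The 6 genes therefore fall at opposite ends of replicate spread. Among all tested genes, the SD left within groups on the log2 scale was at percentile 96.2 for Eps8l1, 87.9 for Iqcn and 85.8 for Fam71a. For Zfp3, Gbe1 and Eloc it was at percentiles 11.8, 0.2 and 1.7. Among the 500 genes nearest in level, the last 3 stood at percentiles 18.2, 0.8 and 2.4. Choosing genes by p favours a small spread as well as a large difference.

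**Figure D2:**
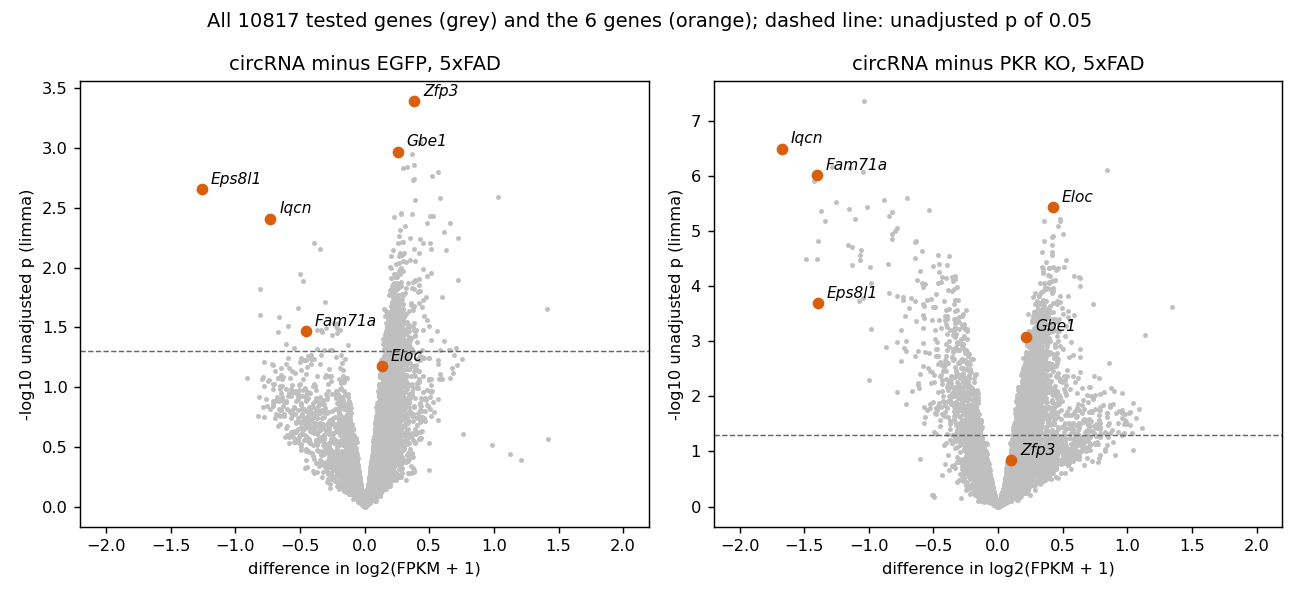
Difference in log2(FPKM + 1) (x axis) against -log10 of the unadjusted limma p (y axis) for all 10817 tested genes (grey) and the 6 genes (orange), for circRNA minus EGFP (left) and circRNA minus PKR KO (right). On the left, 523 genes lie above the dashed line of an unadjusted p of 0.05 and none passed after adjustment; on the right, 670 passed.

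Genes beside them in the ranking had p-values much like theirs. In circRNA against EGFP, Zfp3 had an unadjusted p of 0.000405 and was followed by Psma5, a proteasome subunit, at 0.000892, Gbe1 at 0.00107 and Ybx1, an RNA-binding protein, at 0.00111. Around Eps8l1 (0.00221) stood Tmem97 at 0.00184 and Gbp2, an interferon-induced GTPase, at 0.00255. Around Iqcn (0.00388) stood Snx25 at 0.00378 and Ranbp1 at 0.00419. All of these genes had the same adjusted p, 0.739. Eps8l1 and Iqcn led the genes that were lower, and the median difference over all genes was 0.08, so a small positive difference was the usual case and the differences of Zfp3 (0.38), Gbe1 (0.26) and Eloc (0.13) contain that shift.

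The 4 circRNA libraries did not overlap the 4 PKR KO libraries for any gene but Zfp3, that is for 5 of 6 beside 19.5% of all genes, and the same 5 had a limma adjusted p under 0.05, as did 6.19% of all genes (670 of 10817, of which 463, or 4.28%, were higher and 207, or 1.91%, lower with circRNA). That split turned under quantile normalization (157 higher, 325 lower) and median-ratio scaling (260 higher, 681 lower), and was near even with equal FPKM sums (339 higher, 344 lower). With a library left out, the share higher ran from 47.6% (without PKR KO replicate 1) to 71.6% (without circRNA replicate 2). Iqcn, Fam71a and Eloc were chosen on this contrast, and Eps8l1 and Gbe1 on the same circRNA libraries, so nothing is read from 5 of 6 passing. Iqcn had the largest difference of any gene, -1.67 (SE 0.17, adjusted p 0.00147), at 0.202 times the PKR KO mean. Fam71a followed at -1.40 (SE 0.16, adjusted p 0.00147) and Eps8l1 at -1.39 (SE 0.27, adjusted p 0.0155). Eloc was higher by 0.42 (SE 0.05, adjusted p 0.00284) and Gbe1 by 0.22 (SE 0.05, adjusted p 0.0266). Zfp3 differed by 0.10 (SE 0.07, interval -0.04 to 0.24, adjusted p 0.348), and under quantile normalization its sign turned, to -0.02.

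Next to Iqcn in that ranking stood Kdm6b, a histone demethylase, at -1.04 with an unadjusted p of 4.36e-08, and Gadd45b, a stress-induced gene, at -1.28 with 6.86e-07, beside 3.14e-07 for Iqcn. Fam71a (9.48e-07) stood between Maff, a small Maf transcription factor (-1.04, 8.27e-07), and Socs3, an inhibitor of cytokine signalling (-1.42, 1.24e-06). Eloc (3.65e-06) stood between Ppp1r15a (-1.01, 3.61e-06) and Nfkbiz (-1.15, 4.01e-06). All 6 of these neighbours in rank were lower with circRNA. For Fam71a, 3 genes had a larger difference and 6 a smaller p. The knockout and the handling of its libraries cannot be told apart here.

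The remaining comparisons share libraries with those that chose the genes, so their values are side by side only. PKR KO minus EGFP was 0.94 (SE 0.21) for Iqcn and 0.95 (SE 0.19) for Fam71a, with adjusted p of 0.116 and 0.0909, in a comparison where 9 genes passed (0.0832%). It was 0.28 for Zfp3, 0.04 for Gbe1, -0.29 for Eloc and 0.13 for Eps8l1, with adjusted p of 0.132 to 0.877. Iqcn and Fam71a each passed in 3 of 13 other settings, Eloc in 2 and Zfp3 in 1. The share of all genes passing in those settings is not given here, so nothing is read from these counts. Without EGFP replicate 1 Iqcn differed by 0.60 and Fam71a by 0.61. Against WT, circRNA differed by -1.48 (SE 0.29) for Eps8l1 and 0.82 (SE 0.17) for Fam71a, and by 0.01, 0.00 and -0.09 for Iqcn, Zfp3 and Gbe1. For Eloc it was 0.17 (SE 0.06), which turned to -0.08 when libraries were rescaled to the same FPKM sum. That rescaling moved the median of all genes from 0.02 to -0.20 in circRNA minus WT, from -0.03 to -0.17 in EGFP minus WT and from -0.05 to -0.24 in PKR KO minus WT. PKR KO minus WT was 1.68 (SE 0.18) for Iqcn and 2.22 (SE 0.17) for Fam71a.

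**Figure D3:**
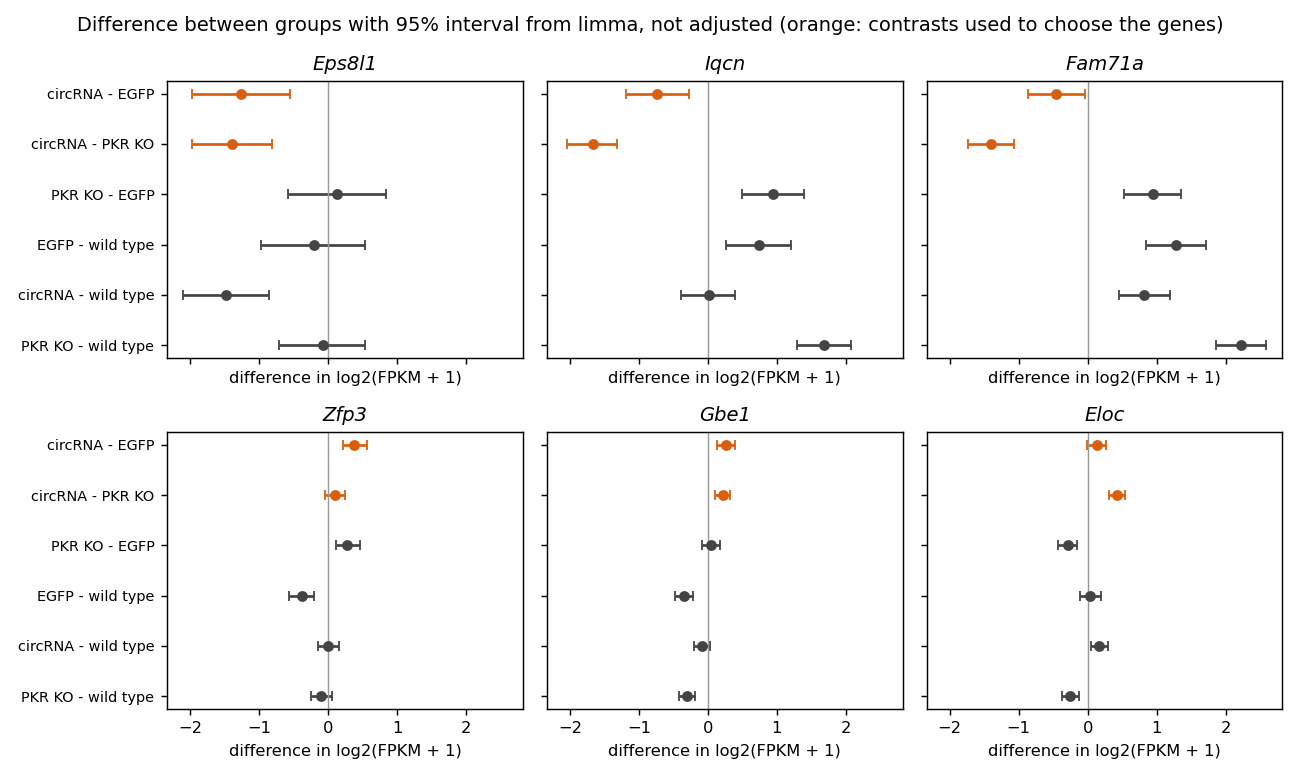
Difference in log2(FPKM + 1) between groups (x axis) for each gene, with the 95% limma interval, not adjusted for the number of genes; orange marks the contrasts that chose the genes. For Iqcn and Fam71a, the intervals of PKR KO minus WT, from 1.29 to 2.07 and from 1.86 to 2.59, lie above 0. The intervals of Zfp3, Gbe1 and Eloc are narrower, such as 0.31 to 0.54 for Eloc in circRNA minus PKR KO and -0.56 to -0.20 for Zfp3 in EGFP minus WT. Eloc was chosen on the former contrast, and Zfp3 on the EGFP libraries of the latter. PKR KO minus WT likewise holds the PKR KO libraries on which Iqcn and Fam71a were chosen. Nothing is therefore read from these intervals leaving out 0.

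Each gene had 1 comparison without the libraries of the contrast in which its p ranked best, fitted on the pair of groups alone. No circRNA library enters these comparisons, so they say nothing on the differences with circRNA. For the genes chosen against EGFP the comparison was PKR KO against WT, where 29.7% of all genes passed. Gbe1 was lower in PKR KO by -0.30 (SE 0.07, 95% interval -0.45 to -0.15, limma adjusted p 0.0107), with all 4 PKR KO libraries below all 3 WT libraries. By the same adjusted p, 14.4% of all genes passed as lower. The exact two-sided permutation p was 0.0286, the smallest that 4 against 3 libraries can give. Eps8l1 differed by -0.08 (SE 0.27, interval -0.70 to 0.53, adjusted p 0.831, exact permutation p 0.857), and Zfp3 by -0.10 (SE 0.07, interval -0.26 to 0.06, adjusted p 0.313, exact permutation p 0.114). The call for Gbe1 was lost under quantile normalization, at -0.18 with an adjusted p of 0.133, and with the replicate number as a block, at -0.305 with 0.0569. Without WT replicate 3, which stood apart from its group, Gbe1 differed by -0.33 (adjusted p 0.0089), Zfp3 by -0.11 and Eps8l1 by -0.33 (adjusted p 0.28 and 0.304), and without WT replicate 1 Eps8l1 turned to 0.29.

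For the genes chosen against PKR KO the comparison was EGFP in 5xFAD against WT, where 4.71% of all genes passed. Fam71a was higher in 5xFAD by 1.28 (SE 0.24, interval 0.70 to 1.85, adjusted p 0.0408), with both EGFP libraries above all 3 WT libraries. By the same adjusted p, 3.57% of all genes passed as higher. Its exact permutation p was 0.1, the smallest that 2 against 3 libraries can give, and its adjusted p stayed under 0.05 in 6 of 13 other settings and in 2 of 5 fits with a library left out, reaching 0.253 without the second EGFP library. Iqcn was higher by 0.74 (SE 0.21, interval 0.22 to 1.26), which missed the threshold (adjusted p 0.119, exact permutation p 0.1). This test is not free of the choice, as its EGFP libraries may also have entered it, since it led the lower genes against EGFP beside Eps8l1. Eloc differed by 0.04 (SE 0.10, interval -0.20 to 0.28, adjusted p 0.879, exact permutation p 0.3), and its sign turned with equal FPKM sums, to -0.11. Without WT replicate 3, Fam71a differed by 1.15 (adjusted p 0.00313), Iqcn by 0.76 and then under the threshold (adjusted p 0.0266), and Eloc by 0.02. Without the second EGFP library Iqcn differed by 0.39 (adjusted p 0.606), and without the first by 1.08 (adjusted p 0.109).

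Across the 13 libraries, which share their groups, Pearson's r of log2(FPKM + 1) was 0.88 between Iqcn and Fam71a and 0.67 between Zfp3 and Gbe1. It was -0.83 between Iqcn and Eloc and -0.81 between Fam71a and Gbe1. Eps8l1 followed none of them closely, from 0.37 with Iqcn to -0.65 with Eloc. The genes most like Iqcn were Polg2, the accessory subunit of the mitochondrial DNA polymerase (r = 0.965), Ppp1r15a, which directs a phosphatase to eIF2alpha (0.929), and Fbrs (0.919). Fam71a was most like Nfkbiz, an atypical IkappaB protein (0.967), Tnfaip3, the NF-kappaB inhibitor A20 (0.964), and Wdr62 (0.964). Mean FPKM of Nfkbiz was 14 in WT, 34.7 in EGFP, 28.2 with circRNA and 63.9 in PKR KO, the same order of groups as for Fam71a, and Tnfaip3 read 12.9, 28.5, 23.7 and 57.9. In circRNA minus PKR KO their differences ran from -0.34 for Fbrs and Wdr62 to -1.25 for Tnfaip3, a description only, since likeness to Iqcn and Fam71a carries the contrast that chose those genes.

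The genes most like the other 4 are as varied in role. Eps8l1 was most like Tnfsf13, a cytokine of the TNF family (r = 0.853), Ttf1, which ends ribosomal RNA transcription (0.841), and Fosl2, an AP-1 subunit (0.835). None of these had so large a gap, with 2.44 FPKM in EGFP and 2.02 with circRNA for Fosl2. Zfp3 was most like Neurl2 (0.842), Diablo, a mitochondrial protein that promotes apoptosis (0.829), and Med19, a Mediator subunit (0.799), and Neurl2 had the same low EGFP level, 2.29 FPKM beside 3.61 in WT, 3.79 with circRNA and 3.48 in PKR KO. Gbe1 was most like Pcca, a subunit of propionyl-CoA carboxylase (0.934), Cpne1 (0.932) and Arl6, a GTPase of cilia (0.909). Eloc was most like Tm7sf3 (0.971), Sap18, a subunit of histone deacetylase complexes (0.960), and Sumo2, a ubiquitin-like modifier (0.959). Tm7sf3 read 9.06 FPKM with circRNA and 6.08 in PKR KO.

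Markers of other cells moved with some of the genes. Over the 13 libraries, the summed level of border macrophage and monocyte markers had an r of -0.78 with Fam71a, -0.59 with Iqcn and 0.68 with Gbe1. All 8 of these markers were above 0 in every library, with sums of 30.6 to 48.6 FPKM in WT, 15.8 to 21.3 in EGFP, 12.2 to 22.1 with circRNA and 11.8 to 16.2 in PKR KO. Ependymal and choroid plexus markers (8 of 8 above 0) had an r of -0.69 with Fam71a, -0.52 with Iqcn and 0.63 with Gbe1, with sums of 1080 to 2680 FPKM in WT, 571 to 784 in EGFP, 356 to 2240 with circRNA and 204 to 822 in PKR KO. The endothelial and mural markers had an r of 0.65 with Gbe1, -0.64 with Fam71a and 0.52 with Zfp3, and those of oligodendrocytes of -0.54 with Fam71a and 0.49 with Eloc, and neither of these sums separates circRNA from EGFP without overlap (59.6 to 113 against 42.0 to 67.4 FPKM, and 314 to 813 against 669 to 710 FPKM). In PKR KO the oligodendrocyte sums were 231 to 387 FPKM, below EGFP with no overlap, and the endothelial and mural sums 57.7 to 94.7 FPKM. Neuron markers (9 of 10 in the table, all above 0) had an r of -0.49 with Zfp3 and -0.42 with Gbe1, and their sums, 11.1 to 33.2 FPKM with circRNA and 33.2 to 39.3 in EGFP, only meet at their ends. Microglia markers had an r of 0.52 with Fam71a, with sums of 7010 to 7270 FPKM in PKR KO, above EGFP (5850 to 6490) and WT (3850 to 6270) with no overlap, and of 5650 to 8580 with circRNA. With the mean level of the neuron, astrocyte, oligodendrocyte, endothelial and mural markers as a covariate, circRNA minus PKR KO was -1.71 for Iqcn, -1.33 for Fam71a and 0.415 for Eloc. This contrast chose those genes, so these values are a description. The covariate leaves out the other lists, including border macrophage and monocyte, ependymal and choroid plexus markers, and their part was not tested.

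Fam71a and Iqcn each lie just downstream of a much more abundant gene on the same strand, a pair of neighbours picked by position after the values were seen. Atf3, a stress-induced transcription factor, lies at chr1:191170296-191218039 on the minus strand, 5478 bases upstream of Fam71a. It measured 40, 33 and 25.5 FPKM in WT, 84.6 and 114 in EGFP, 90.5, 76.7, 66.4 and 62.6 with circRNA, and 149, 161, 126 and 154 in PKR KO. The means follow the order of Fam71a, although the circRNA and EGFP libraries of Atf3 overlap, and r was 0.954, which placed Atf3 at 8 of 10816 genes by likeness to Fam71a. Fam71a per length was not a fixed share of Atf3, at 1.53% to 2.51% in WT, 2.57% to 3.56% in EGFP, 2.35% to 2.90% with circRNA and 3.68% to 5.78% in PKR KO.

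Jund, a subunit of AP-1, lies at chr8:70698949-70700616 on the plus strand, 2840 bases upstream of Iqcn, and the RefSeq start of Iqcn is 1432 bases before that of GENCODE. Jund measured 184, 170 and 158 FPKM in WT, 197 and 219 in EGFP, 187, 165, 187 and 150 with circRNA, and 267, 234, 251 and 202 in PKR KO. Its r with Iqcn was 0.884, place 17 of 10816. Iqcn stood at 0.497% to 0.810% of Jund in WT, 0.932% to 1.63% in EGFP and 0.389% to 0.887% with circRNA, against 2.28% to 2.82% in PKR KO. In circRNA minus PKR KO, Atf3 differed by -0.99 (adjusted p 0.00794) and Jund by -0.47 (adjusted p 0.0404), less than Fam71a and Iqcn. Whether fragments of a long transcript of the upstream gene were counted to the downstream gene was not tested, and how counting treated the strand is not given. The nearest genes of Eps8l1, Zfp3 and Eloc with a level to test had an r of at most 0.636, the value of Ppp1r12c with Eps8l1.

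**Figure D4:**
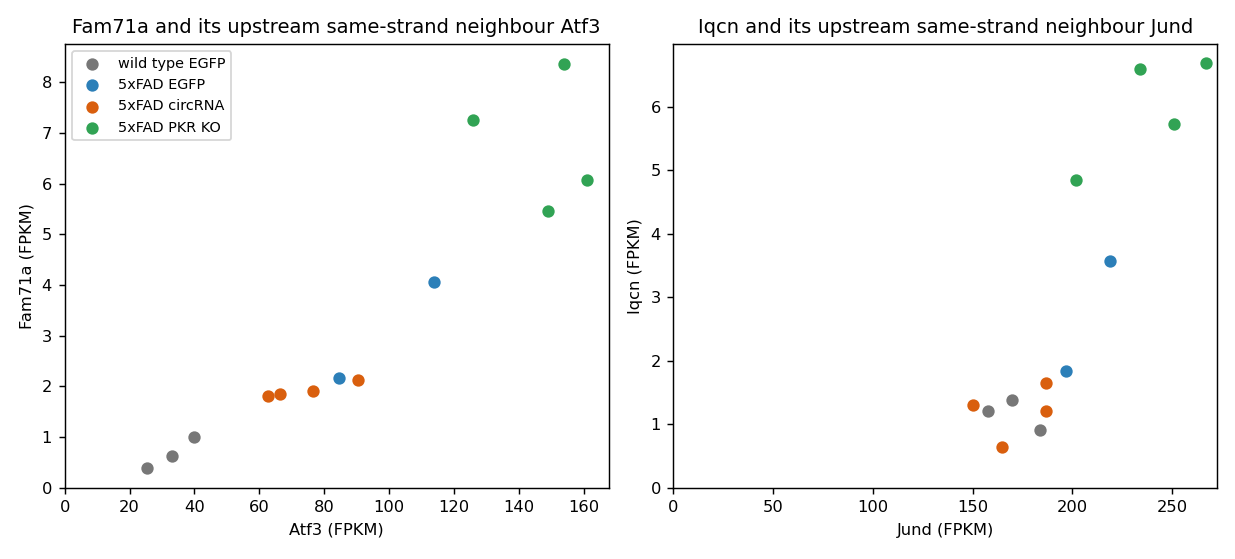
FPKM of Fam71a (left, y axis) against Atf3 (x axis) and of Iqcn (right) against Jund in the 13 libraries, both axes linear and coloured by group. The 4 PKR KO libraries have the highest Fam71a and Iqcn levels, and r on the log2 scale was 0.954 and 0.884.

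The partners of these genes in their pathways gave no limma call in circRNA against EGFP, 0 genes in every list as over all genes. In circRNA against PKR KO, where 6.19% of all genes passed, 0 of 19 tested EPS8 family and actin genes did, with a median difference of 0.10 beside 0.08 over all genes. Its most abundant members were Nckap1l, of the WAVE complex in blood cells (81.9 FPKM with circRNA and 75.9 in PKR KO, adjusted p 0.664), and Cdc42, a small GTPase (71.9 and 56.5, adjusted p 0.116). Of 12 genes with IQ motifs and calmodulins, 1 passed, Iqce, which was lower by -0.26 (2.68 and 3.42 FPKM, adjusted p 0.0227). Calm2, which encodes calmodulin, read 62.5 FPKM with circRNA and 48.4 in PKR KO (adjusted p 0.0722). Of the Fam71 family and RAB2, 2 of 7 listed genes in the table could be tested, both RAB2 genes. Rab2b was higher with circRNA by 0.25 (2.58 and 2.00 FPKM, adjusted p 0.0493) and Rab2a read 22.3 and 18.2 FPKM (adjusted p 0.0802).

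None of 21 glycogen genes passed in circRNA against PKR KO, with a median of 0.10. Gaa, the lysosomal glucosidase, read 35.7 and 37.2 FPKM (adjusted p 0.698), and Pygb, a glycogen phosphorylase, 15.6 and 12.5 FPKM (adjusted p 0.321). Of 30 elongin and cullin ligase genes, 1 passed in each direction. Appbp2, a substrate receptor, was higher with circRNA by 0.28 (6.99 and 5.58 FPKM, adjusted p 0.0279), and Socs3 was lower by -1.42 (21.6 and 59.9 FPKM, adjusted p 0.00167). Of 253 genes with a Zfp symbol like that of Zfp3, chosen by name and not all of the C2H2 type, 7 were higher and 4 lower, 4.35% beside 6.19% over all genes, with a median of 0.09. The lower ones were Zfp36, a protein that destabilises cytokine mRNAs and has zinc fingers of another type (-1.40, adjusted p 0.00477), Zfp335 (-0.27), Zfp236 (-0.23) and Zfp697 (-0.32). The higher ones were Zfp580 (0.40), Zfp706 (0.36), Zfp266 (0.34), Zfp953 (0.30), Zfp26 (0.28), Zfp871 (0.25) and Zfp763 (0.20).

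In the fit of all libraries, PKR KO against WT gave 5 higher and 3 lower of 21 glycogen genes (38.1%, beside 37% of all genes), and EGFP against WT 4 higher and 0 lower (19%, beside 14%). Gyg, the glycogenin that primes glycogen and a gene named after its values were seen, averaged 4.19 FPKM in WT, 9.15 in EGFP, 10.7 with circRNA and 12.0 in PKR KO. Elob, the partner of Eloc and likewise named afterwards, averaged 9.74 FPKM in WT, 14.4 in EGFP, 18.5 with circRNA and 16.1 in PKR KO. By their means, Gbe1 was below its WT level in each 5xFAD group and Eloc below it in PKR KO only. Of the 253 genes with a Zfp symbol, 9 were higher and 67 lower in PKR KO against WT (30%, beside 37% of all genes), with a median of -0.15 beside -0.05 over all genes.

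**Figure D5:**
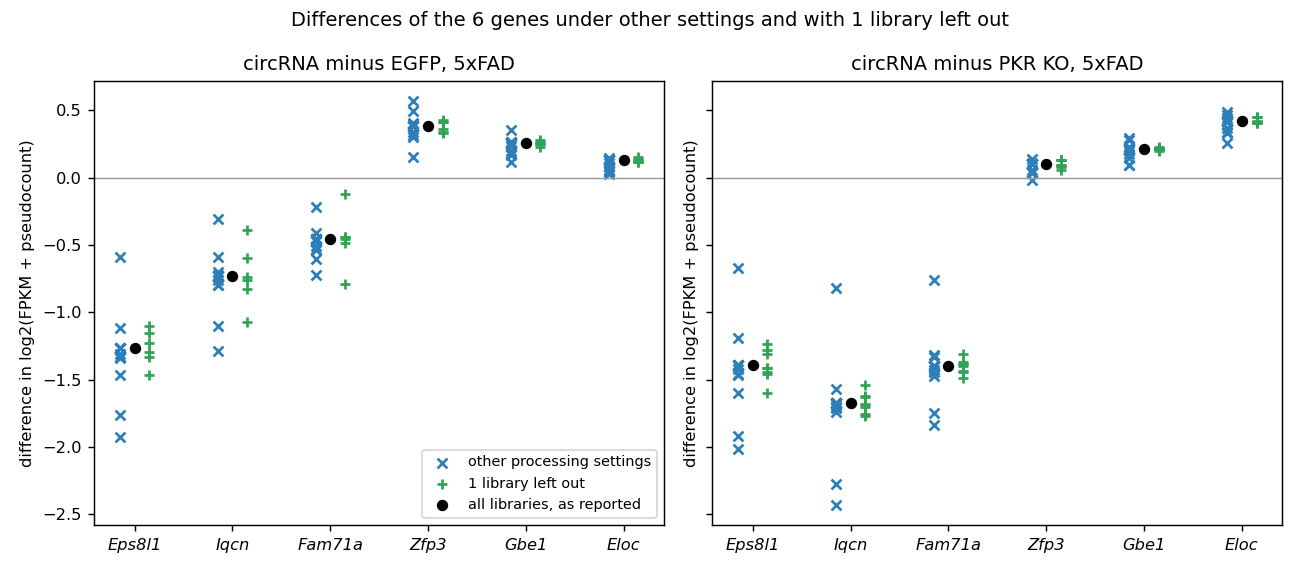
Difference in log2(FPKM + pseudocount) (y axis) of the 6 genes in circRNA minus EGFP (left) and circRNA minus PKR KO (right), as reported (black), under other processing settings (blue crosses) and with 1 library left out (green). Signs held in every setting shown but 1, Zfp3 against PKR KO; leaving out an EGFP library moved Fam71a between -0.79 and -0.12 and Iqcn between -1.07 and -0.39.

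No setting brought any of the 6 genes under an adjusted p of 0.05 in circRNA against EGFP. Over 13 other settings, the smallest adjusted p was 0.0944 for Eps8l1, 0.108 for Zfp3, 0.167 for Gbe1, 0.227 for Iqcn, 0.436 for Fam71a and 0.52 for Eloc. In circRNA against PKR KO, Iqcn, Fam71a and Eloc passed in all 13 settings and without any 1 of the 8 libraries. They were chosen on this contrast, and Eps8l1 and Gbe1 on the same circRNA libraries, so nothing is read from how often these genes passed. Among all genes, 448 (replicate block) to 3161 (array weights) passed in those settings, and 147 to 506 with a library left out. Eps8l1 passed in all 13 settings and missed the threshold without circRNA replicate 1 (adjusted p 0.0526). Gbe1 passed in 9 of 13 settings and in 1 of 8 fits with a library left out, where its adjusted p ran from 0.0488 to 0.0764. It missed the threshold under quantile normalization (0.095, adjusted p 0.433), median-ratio scaling (0.145, 0.0674), equal FPKM sums (0.174, 0.0573) and the replicate block (0.216, 0.063).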

How the data were processed

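The deposited table gives FPKM, fragments per kilobase of exon and per mega-fragment of library, with 13 columns, 1 for each library and none pooled, as the authors made it. Per the labels' protocols, RNA isolated with TRIzol was depleted of ribosomal RNA and made into stranded libraries sequenced on a NovaSeq instrument. The submitters' processing notes name Bowtie2 2.3.5, HISAT2 2.1.0, featureCounts 1.5.1 and the build mm10, and the annotation and the strand setting of counting are not given in the sources used here. FPKM steps matched exon lengths of GENCODE M21 for 19394 genes (98.3%), and 84.7% of 47122 values below 0.3 FPKM were whole fragments within 0.02, against 4% by chance, which gave the depth of each library. Counting error and fragment numbers come from that recovery.

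Tests were run in limma 3.58.1 (R 4.3.3). The input was log2(FPKM + 1) of the deposited values, with 1 mean per group, 9 residual degrees of freedom, eBayes with an intensity trend and Benjamini-Hochberg adjustment over the 10817 genes averaging 1 FPKM or more. The code was tested on simulated data. No count model was the main test, since FPKM values are not counts. An alternative with voom on the recovered fragments was added after seeing the data. The 6 genes and the gene lists were chosen with earlier results of these data known. Each gene was fitted in all 6 comparisons as a description, and taken as tested only in the one that leaves out the libraries of the contrast in which its p ranked best. That comparison holds no circRNA library, so it does not test the difference with circRNA. Other genes named are the 3 most alike to each of the 6 by Pearson's r, those beside them in the ranking by p, and from each list those that passed in circRNA against PKR KO or, where fewer than 2 did, its 2 most abundant; 1 gene named by this rule is not reported here. Outside the rule, Atf3, Jund and Ppp1r12c were named by position, and Gyg and Elob, all after their values were seen. Same-numbered replicates are not stated to be paired, and their deviations correlated at -0.42 to 0.69, so the replicate number was used only as an alternative. No 2 libraries of 1 group agreed within counting error. Alternatives were other pseudocounts, filters, scalings, weights, a marker covariate, the replicate block and leaving out each library.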

Additional observations from a re-analysis of the deposited data

Results flagged for a closer look

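One library stood off from its group. Eloc in PKR KO replicate 4 measured 4.84 FPKM, beside 4.35, 4.3 and 4.38 FPKM in the other 3 PKR KO libraries, a gap wide enough against the range of the group to be picked out by Dixon's ratio. Such a gap arises by chance in about 1 in 20 groups, and 16 groups of 4 libraries were examined (the 6 genes, Atf3 and Jund). All 4 values are below those of every other library, and without replicate 4 Eloc differed by 0.45 on the log2 scale between circRNA and PKR KO instead of 0.42.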

How the results depend on the processing

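The replicate spread was below the counting error in 3 of 4 groups for Gbe1, 2 for Eloc and 1 for Zfp3, and in none for the other genes, with Fam71a near it in circRNA (7.36% against 6.94%). Genes passing between circRNA and EGFP numbered 0 in the reported fit and 3, all lower and none of the 6, with the marker covariate, and 0 in the other 12 settings and without any 1 library. The 670 genes passing between circRNA and PKR KO became 3161 with array weights, 1338 with the marker covariate, 448 with the replicate block and 147 (without PKR KO replicate 1) to 506 with a library left out. The share of these that were higher, 69.1%, was 32.6% under quantile normalization, 27.6% under median-ratio scaling and 49.6% with equal FPKM sums.

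In PKR KO against WT, Eps8l1 turned to 0.289 without WT replicate 1 (range -0.331 to 0.289 with a library left out). Zfp3 turned to 0.061 under quantile normalization and passed with equal FPKM sums at -0.26 (adjusted p 0.0211). Gbe1 no longer passed under quantile normalization (-0.175, adjusted p 0.133) or with the replicate block (-0.305, adjusted p 0.0569), and passed in the other 11 settings and without any 1 library. In EGFP against WT, Iqcn passed with the marker covariate (0.71), the replicate block (0.755), all 13 libraries (0.737) and without WT replicate 3 (0.755), and ran from 0.393 to 1.08 with a library left out. Fam71a no longer passed with a pseudocount of 5 (0.508), no filter (1.276), a mean of at least 0.1 FPKM (1.276), quantile normalization (1.393), median-ratio scaling (1.31), equal FPKM sums (1.219) or voom (2.173), nor without WT replicate 1, EGFP replicate 1 or EGFP replicate 2 (0.939 to 1.613), with adjusted p from 0.0521 to 0.253. Eloc turned to -0.108 with equal FPKM sums and -0.005 with voom, and Eloc in circRNA against WT to -0.077 with equal sums. The causes were not tested. The replicate block also ended the call of Gbe1 in circRNA against PKR KO (0.216, adjusted p 0.063) and, in the fit of all libraries, those of Iqcn in EGFP against WT (0.731, adjusted p 0.0872) and Eloc in circRNA against WT (0.156, adjusted p 0.125), and changed no other call of the 6 genes. Without 1 of the 2 EGFP libraries, the lone one was assumed to vary like the other groups.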
